A study of Homo sapiens with 4 samples.

Results

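BCL6 is a transcriptional repressor that germinal centre B cells need, and it holds back the genes that turn a B cell into an antibody-secreting plasma cell. The switch is driven by BLIMP-1, the product of PRDM1, together with IRF4 and XBP1, and BLIMP-1 in turn represses BCL6. A cell that completes the switch carries a characteristic set of surface proteins and enlarges its secretory apparatus. Occupancy of BCL6 at 10 genes of this programme was described here: the transcription factors PRDM1, XBP1 and IRF4, the surface genes CD38, CD27, SDC1, TNFRSF17 and SLAMF7, and the secretory genes JCHAIN and MZB1. They were chosen by name, with earlier results of these data known, out of 19974 protein-coding genes (chromosomes 1 to 22 and X). A peak was counted for a gene when its summit lay inside the gene or within 50 kb of either annotated end, and 27 of the deposited peaks met this rule.

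BCL6 was profiled by CUT&RUN in SUDHL5, a cell line of diffuse large B-cell lymphoma, with 2 biological replicates. In this assay an antibody tethers a nuclease to chromatin, and the fragments cut loose around the bound protein are read by sequencing. The parallel normal rabbit IgG libraries, also 2, were not analysed here, and the labels name no treatment, genotype or other state for any sample. The lists hold 5230 peaks (replicate 1) and 3529 peaks (replicate 2) on these chromosomes, with a median fold enrichment over local background of 3.55 and 3.74. The median number of fragments over a summit, the pileup, was 23 and 21. Expression was not measured in these libraries, so neither the B cell identity of the line nor the activity of any of the genes can be read from them. All values come from 1 line in 1 state, and no groups were compared.

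Peaks of the 2 lists that share at least 1 bp were merged, and a merged region with a peak of each list is called shared. Shared regions lay at 4 of the 10 genes: PRDM1 and XBP1 among the transcription factors, and CD38 and CD27 among the surface genes. Of all protein-coding genes, whatever their length, 10.2% had one by the same rule. CD38 had 2 shared regions and the other 3 genes had 1 each. SDC1 and TNFRSF17 had a peak in replicate 1 alone, MZB1 had one in replicate 2 alone, and JCHAIN had peaks in both lists that did not overlap. IRF4 and SLAMF7 had no peak of either list, as did 62.7% of all protein-coding genes.

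**Figure D1:**
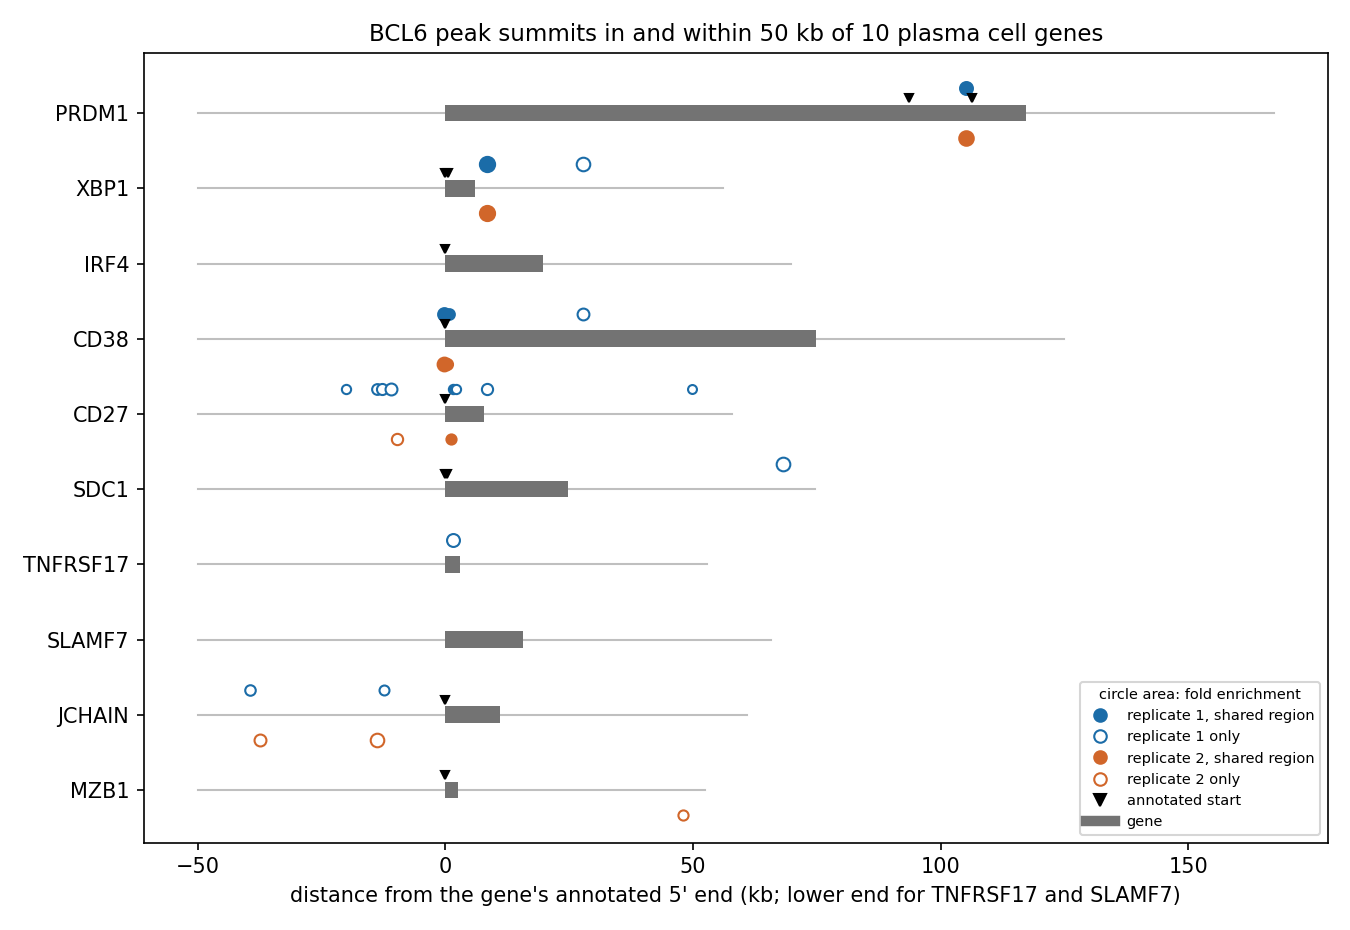
Summits of BCL6 peaks at each gene, by distance in kb from the annotated 5′ end (from the lower end for TNFRSF17 and SLAMF7, whose direction was not used); circles above the line are replicate 1 and below it replicate 2, filled where the region is shared, with the area scaled to fold enrichment. Filled circles of both replicates stand at PRDM1, XBP1, CD38 and CD27 only, and the lines of IRF4 and SLAMF7 carry no circle.

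The sequence shown is the stretch before the start of CD38, because it is the only one of the 11 RefSeq promoters listed for 8 of the 10 genes that a BCL6 peak of either list reached. It covers the 250 bases before the start on the plus strand, chr4:15778078-15778327 in GRCh38.p14, and the capitals mark the 42 bases covered by a peak of each list.
CD38: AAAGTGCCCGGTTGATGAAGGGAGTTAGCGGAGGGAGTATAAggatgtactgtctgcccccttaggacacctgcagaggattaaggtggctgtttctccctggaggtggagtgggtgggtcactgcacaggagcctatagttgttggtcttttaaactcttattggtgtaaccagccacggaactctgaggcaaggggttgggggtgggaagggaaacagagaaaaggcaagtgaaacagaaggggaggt
The replicate 2 peak ran on through 214 of these bases and the replicate 1 peak ended after the first 42. The letters TTCCTAGAA, those of a BCL6 site, were searched on both strands in windows from 250 bases before to 50 after each start, as were the looser TTCCTNGAA, which includes them, and TTCNNNGAA, which includes both. None of the 11 promoters of the plasma cell genes held any of the 3. Of all 35116 promoters in the table, 0.373% held TTCCTAGAA, 1.56% held TTCCTNGAA and 7.66% held TTCNNNGAA. This says only that these letters are not in these windows. The peaks at the other genes lie outside them, and their sequence was not used here. The summits at CD38 lie outside them too, the nearest, of replicate 2, 354 bp before the start. The letters under the CD38 summits were thus not searched.

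PRDM1 encodes BLIMP-1, the repressor that closes the B cell programme. Its annotated span of 117 kb on chromosome 6, from 105992690 to 106109938, held 1 peak in each list. The replicate 1 peak had a fold enrichment of 4.25 and a pileup of 21 (exact Poisson 95% interval 13.0 to 32.1) over a local background of 4.18. The replicate 2 peak had 5.40 and a pileup of 17 (9.90 to 27.2) over a background of 2.33. The totals of the libraries are unknown, so the pileups of the 2 lists cannot be set against each other. The summits of the 2 lists stood 9 bp apart. Only 9.92% of all 1311 shared regions had summits as close, against a median gap of 91.0 bp. The shared region ran from 106097517 to 106097894, inside the gene. Its summit lay 11.4 kb after the first of 2 listed starts and 1.20 kb before the second, at 106098941. The first listed start is itself 93.6 kb inside the annotated span. By the smaller of both fold enrichments, 78.7% of shared regions were lower. The −log10 q was 5.19 and 5.90, so the region is kept with a minimum of 5 and lost with a minimum of 10.

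XBP1 encodes the transcription factor that expands the secretory pathway under the unfolded protein response. The gene lies on the minus strand of chromosome 22, from 28794560 to 28800569, and its shared region was the strongest of the set. Replicate 1 had a fold enrichment of 5.92 with a pileup of 34 (exact Poisson 95% interval 23.5 to 47.5), and replicate 2 had 5.87 with a pileup of 31 (21.1 to 44.0). The values are close to each other, and 95.0% of all shared regions had a smaller lower fold. The −log10 q was 13.2 and 11.7, and XBP1 was the only one of the 10 genes whose shared region was kept with a minimum of 10. The region ran from 28791648 to 28792735, past the 3′ end of the gene: the summits lay 2.38 and 2.44 kb beyond that end, and 7.90 and 7.96 kb after the nearer of 2 annotated starts. No annotated gene of any type spans either summit. The replicate 1 peak was 1088 bp wide and the replicate 2 peak of 521 bp lay wholly inside it, with the summits 57 bp apart. A further peak, of replicate 1 only, lay 21.7 kb from XBP1, with a fold enrichment of 4.71. It stood 0.165 kb inside CCDC117 and reached 23 and 112 bases of the 2 promoters listed for that gene.

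IRF4 encodes the factor that acts upstream of PRDM1 in plasma cell commitment. It lies on chromosome 6 from 391752 to 411443. The nearest replicate 1 peak was 299 kb away, next to EXOC2, with a fold enrichment of 3.55 and a −log10 q of 2.26. The nearest replicate 2 peak was 1834 kb away, and the nearest shared region 2447 kb. Of the 3 transcription factors, IRF4 is thus the one with no BCL6 peak in its window in either list. Of all peaks, 25.7% in replicate 1 and 38.4% in replicate 2 were in shared regions, so the lack of a peak does not show that BCL6 was absent.

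CD38 encodes an ectoenzyme that marks germinal centre B cells as well as plasma cells. It lies on the plus strand of chromosome 4 from 15778328 to 15853232. Both lists had a peak on either side of its start, and these form the 2 shared regions. In the upstream region, from 15777598 to 15778291, replicate 1 had a fold enrichment of 4.16 and a pileup of 26 (exact Poisson 95% interval 17.0 to 38.1). Replicate 2 had 4.85 there and a pileup of 18 (10.7 to 28.4). The summits were 5 bp apart, 359 and 354 bp before the start, the tightest agreement at any of the 10 genes.

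The downstream region at CD38, from 15778709 to 15780010, was weaker. Its fold enrichments were 2.92 and 3.12, with pileups of 22 (exact Poisson 95% interval 13.8 to 33.3) and 16 (9.15 to 26.0). About the same share of each list was lower, 21.9% of the replicate 1 peaks and 21.3% of the replicate 2 peaks. The summits stood 633 and 386 bp after the start. The first region ended 37 bp before the start and the second began 381 bp after it, so none of the 5 peaks at CD38 covered the start itself. The fifth, of replicate 1 only, lay 27.8 kb inside the gene on a pileup of 11 (exact Poisson 95% interval 5.49 to 19.7), the lowest of all 27. CD38 was the only one of 8 genes with a listed start that had a shared summit within 1 kb of it, against 3.22% of 15813 protein-coding genes with a listed start.

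CD27 encodes a receptor of the tumour necrosis factor family found on memory B cells and plasma cells. It lies on the plus strand of chromosome 12 from 6443892 to 6451713 and had more peaks than any of the other 9 genes in replicate 1, 8 in all. Only 0.596% of protein-coding genes had as many in their window. Replicate 2 had 2, and 7.40% of protein-coding genes had at least 2 there. Of the replicate 1 peaks, 7 fell in a run of 28.5 kb: 4 lay 10.9 to 20.0 kb before the start, 2 lay inside the gene and 1 lay 0.640 kb past its end, inside TAPBPL. The eighth stood 0.328 kb from NCAPD2, and that peak covered 109 bases of a promoter listed for MRPL51. The antisense transcript CD27-AS1 spans the 2 summits inside the gene, and CUT&RUN signal there cannot be assigned to either.

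These CD27 peaks had low fold enrichments for their coverage. All 8 replicate 1 peaks had a pileup above the list's median, from 27 to 55, and all 8 had a local background above the median of 5.90, from 8.10 to 26.4. Their fold enrichments ranged from 2.04 to 3.63, and 7 of 8 were below the median of the list. Both replicate 2 peaks followed the same pattern, with fold enrichments of 3.26 and 2.64 over backgrounds of 6.68 and 11.9, where the median background was 4.63. By −log10 q the replicate 1 peaks lay on both sides of the list's median of 3.94. The values were 4.87, 4.97, 6.28 and 5.35 above it, and 1.40, 1.89, 1.65 and 2.97 below it. In replicate 2 they were 3.54 and 3.20, where the median was 3.77. The part of local coverage in these peaks was not tested.

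The shared region of CD27 is the least secure of the 5. It ran from 6444962 to 6445546, inside the gene, 1.18 and 1.62 kb after the start. Its fold enrichments were 2.22 in replicate 1 and 2.64 in replicate 2, and 3.05% of all shared regions had a smaller lower fold. The peaks of the 2 lists overlapped by 33 bp, with their summits 441 bp apart, and 87.6% of shared regions had summits at least as close. Their −log10 q was 1.89 and 3.20, where the lowest of each list was 1.31. With a reciprocal overlap of 50%, summits within 200 bp or a −log10 q of at least 5, CD27 had no shared region.

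**Figure D2:**
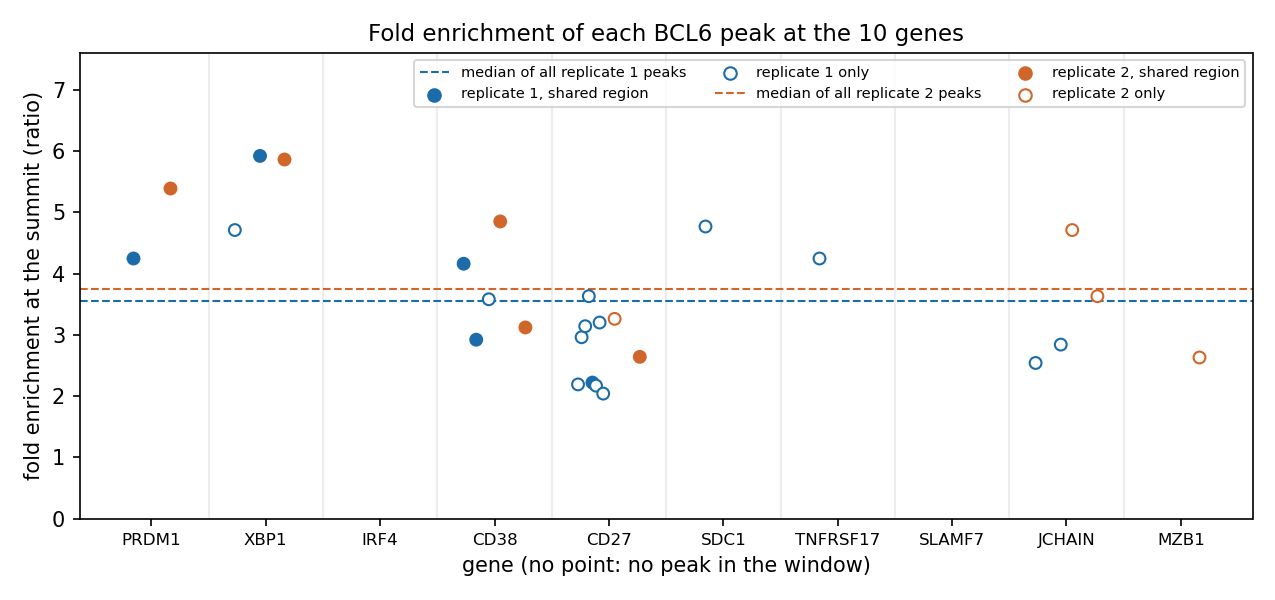
Fold enrichment (ratio at the summit) of every peak at each gene, in order of position, for replicate 1 (blue) and replicate 2 (orange), filled where the region is shared; dashed lines are the medians of all peaks, 3.55 and 3.74. PRDM1 and XBP1 lie above both lines in each replicate, the CD38 peaks fall on either side of them, and 7 of 8 replicate 1 peaks of CD27 lie below.

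The other surface genes had peaks of replicate 1 only or none. SDC1, which encodes the plasma cell marker syndecan-1, had 1 peak at the far edge of its window, 43.5 kb past the 3′ end. Its fold enrichment was 4.77 with a pileup of 20 (exact Poisson 95% interval 12.2 to 30.9). TNFRSF17, which encodes the survival receptor BCMA, had 1 peak inside the gene, on chromosome 16 from 11966198 to 11966709. Its fold enrichment was 4.26, also with a pileup of 20 (12.2 to 30.9). The summit also lies inside NPIPB2, a member of a repeated gene family that spans TNFRSF17, so the peak cannot be assigned to either gene. Of the 200 replicate 1 peaks closest in −log10 q, 28.0% (Wilson 95% interval 22.2 to 34.6) were shared for the SDC1 peak and 19.0% (14.2 to 25.0) for the TNFRSF17 peak. Most replicate 1 peaks of this −log10 q thus had no partner in replicate 2.

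SLAMF7 encodes a surface receptor of the SLAM family that is abundant on plasma cells. It lies on chromosome 1 from 160739057 to 160754821 among its relatives. No summit of either list lay within 50 kb. The nearest peaks stood next to other genes of that cluster: at 65.8 kb in replicate 1, next to CD48 (fold enrichment 4.64), and at 114 kb in replicate 2, next to SLAMF1 (4.03). The nearest shared region, next to SLAMF6, was 217 kb away, with a fold enrichment of 2.83 in 1 of the lists.

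The secretory genes had peaks in their windows, but each of these peaks was nearer to another protein-coding gene. JCHAIN encodes the joining chain of polymeric immunoglobulins and lies on the minus strand of chromosome 4 from 70655541 to 70666508. Before its start, replicate 1 had a peak at 12.4 kb (fold enrichment 2.54, pileup 29) and replicate 2 had one at 13.9 kb (4.71, pileup 22). These did not overlap, and their summits were 1469 bp apart, both inside the long noncoding transcript LOC101927297. The protein-coding gene nearest to both was UTP3, at 9.64 kb for replicate 1 and 8.17 kb for replicate 2. Further out, replicate 1 had a peak at 39.5 kb (2.84) and replicate 2 had one at 37.5 kb (3.63), with summits 1997 bp apart and both inside RUFY3. JCHAIN thus had a pair of neighbouring peaks at each place and no shared region at either. Of the 200 replicate 2 peaks closest in −log10 q to the one at 13.9 kb, 54.5% (Wilson 95% interval 47.6 to 61.3) were shared.

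MZB1 encodes an endoplasmic reticulum chaperone for immunoglobulin heavy chains. It lies on chromosome 5 from 139387467 to 139389913. Replicate 2 had 1 peak 45.5 kb away, with a fold enrichment of 2.64 and a pileup of 35 (exact Poisson 95% interval 24.4 to 48.7) over a background of 12.6. That summit was inside PAIP2, 0.158 kb from its 5′ end, and the peak covered 92 bases of a PAIP2 promoter. Replicate 1 had nothing nearer than 93.6 kb.

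Some peaks that were not shared stood close to a peak of the other list. Within 2 kb of a summit of the other list lay 4 of the 13 replicate 1 peaks at these genes that were not shared, and 3 of the 4 of replicate 2. Over all such peaks the shares were 12.7% (Wilson 95% interval 11.7 to 13.8) and 18.9% (17.3 to 20.6). All 7 of these are peaks of CD27 or JCHAIN. The 3 of replicate 2 are each the neighbour of a replicate 1 peak among the 4, so the counts of the lists are not independent.

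**Figure D3:**
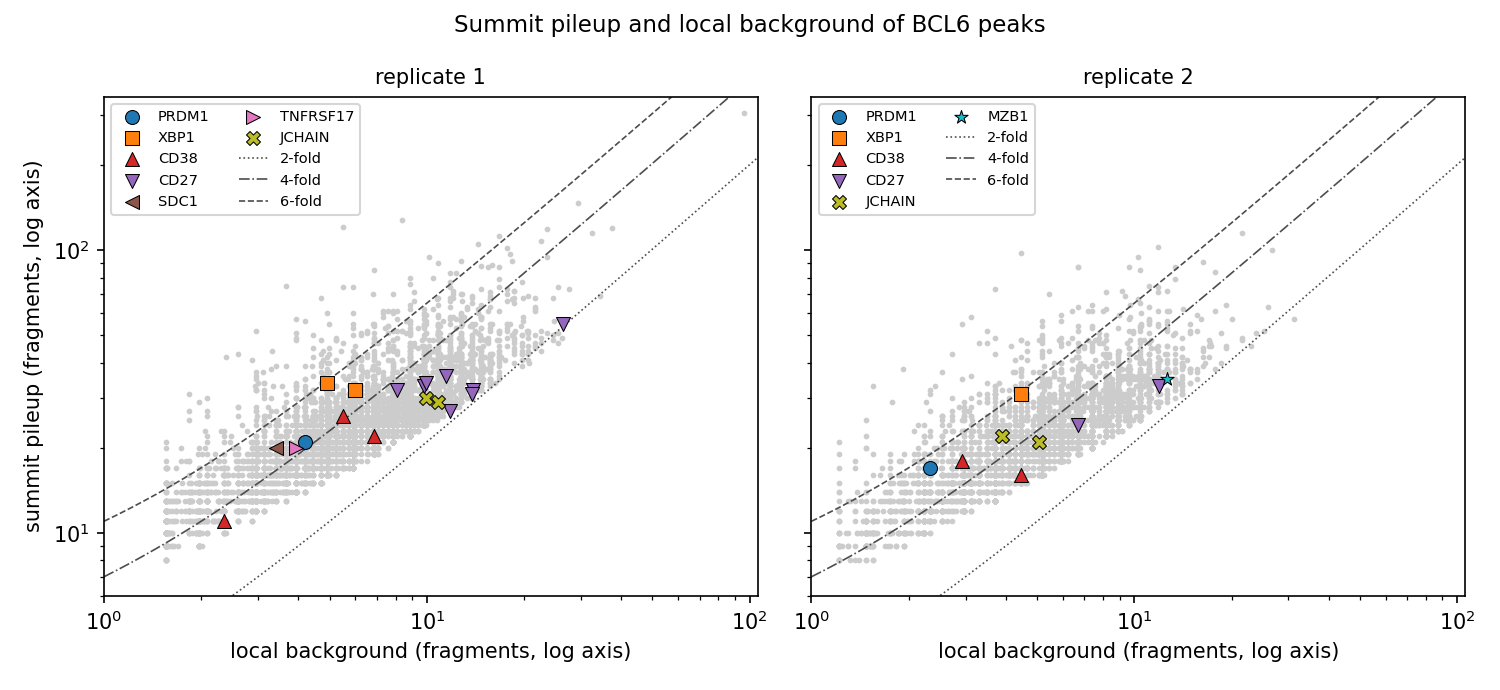
Summit pileup against local background, both in fragments on log axes, for all peaks (grey) and the peaks at the plasma cell genes (coloured marks), with lines of equal fold enrichment. The replicate 1 peaks of CD27 lie at backgrounds from 8.10 to 26.4 with folds of 2.04 to 3.63, and those of PRDM1, SDC1 and TNFRSF17 at backgrounds from 3.40 to 4.18 with folds of 4.25 to 4.77.

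Over the 10 genes, 7 had a replicate 1 peak in the window, against 29.5% of all protein-coding genes, and 6 had a replicate 2 peak, against 23.3%. A peak of each list, overlapping or not, was found at 5, against 15.6%. The 4 genes with a shared region had it within 10 kb as well, against 5.79% of all genes, and each was the nearest protein-coding gene to it, against 4.75% of genes. Within 1 kb on either side of an annotated end, with the rest of the gene body left out, CD38 alone had a shared region, against 2.74%. By role, 2 of 3 transcription factors and 2 of 7 surface and secretory genes had a shared region, and these numbers are too small to set the groups apart. The median fold enrichment at the 10 genes was 3.17 over 18 replicate 1 peaks and 3.63 over 9 replicate 2 peaks, below the 3.55 and 3.74 of all peaks. This order turns without CD27, an alternative chosen after seeing the data: the median was then 4.20 over 10 replicate 1 peaks and 4.71 over 7 replicate 2 peaks, above those of all peaks. Of the 27 peaks, 8 had another protein-coding gene nearer than the plasma cell gene.

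**Figure D4:**
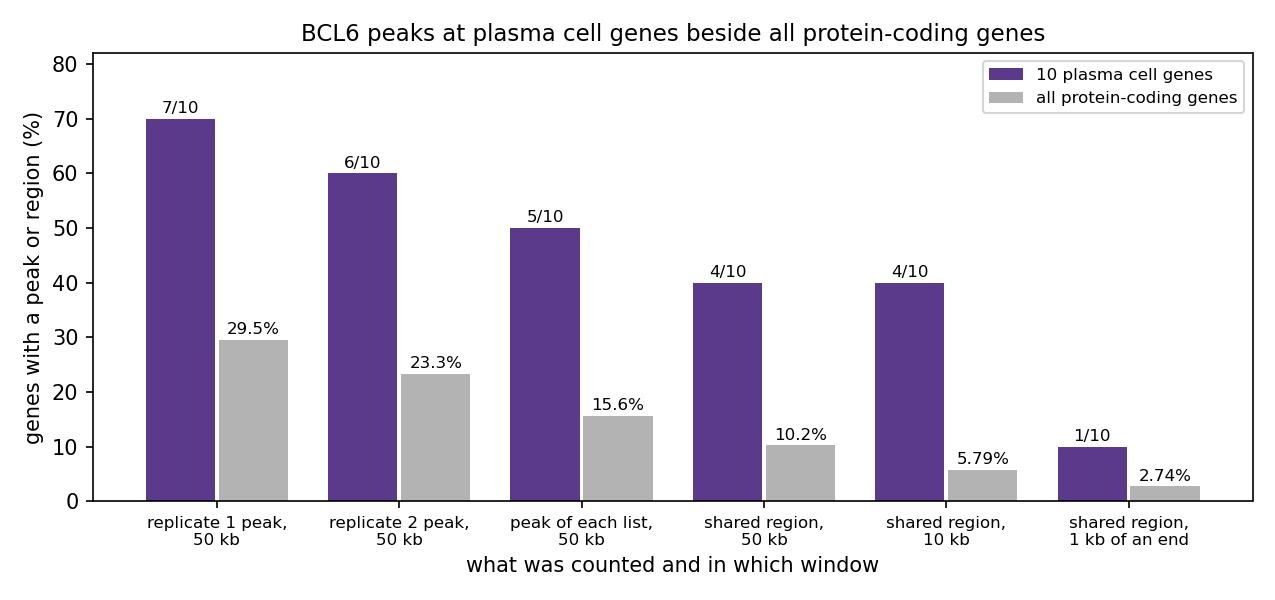
Percent of the 10 plasma cell genes (purple, with the count) and of all 19974 protein-coding genes (grey) with a peak of each list or a shared region, by window. The counts go from 7 of 10 with a replicate 1 peak within 50 kb to 1 of 10 with a shared region within 1 kb of an end, while the share of all genes goes from 29.5% to 2.74%.

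Another 65 genes of the same transition, in 4 lists, were described by the same rule with summits inside the gene or within 10 kb. In all, 14 had a shared region, against 5.79% of all protein-coding genes by this rule. Among 10 factors that hold the B cell state, 4 had one (40.0%, against 5.79%): BCL6 itself, ETS1, EBF1 and IRF8. The strongest region at BCL6, 0.132 kb before its start, had fold enrichments of 6.38 and 11.5. IRF8, a factor of germinal centre B cells, had 2 shared regions inside the gene, with fold enrichments of 5.13 and 3.55 at 7.45 kb after the start, and 3.19 and 5.47 at 5.88 kb. ETS1 had 4.51 and 4.88 inside the gene, and EBF1, a B lineage factor, had 3.95 and 5.12. Among 15 other regulators of plasma cells, 3 had shared regions (20.0%, against 5.79% of all genes), namely TCF4, IKZF1 and ZBTB20, each inside the gene. TCF4, an E protein, had 3 of them, the strongest with fold enrichments of 3.86 and 4.54 at 0.485 kb after a start. The regions of TCF4 lay 126 to 198 kb from the nearer end of the gene, and those of ZBTB20 107 and 114 kb. A long gene offers more room for a summit under this rule, and the share of all genes was not matched for length.

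Of 16 survival and surface genes, 4 had a shared region (25.0%), as did 3 of 24 genes of the secretory pathway and the unfolded protein response (12.5%), against 5.79% of all genes. The lists were chosen by name with earlier results of these data known, and no test was made, so these shares are a description only. CXCR4, the receptor that guides plasma cells to the bone marrow, had fold enrichments of 9.35 and 8.47 at 8.73 kb before its start. TNFRSF13C, which encodes the BAFF receptor, had 6.93 and 5.59 at 3.85 kb from an end, but SHISA8 was nearer. The others were MCL1, a survival gene of the BCL2 family, with 4.99 and 3.29, and CCR10, a chemokine receptor, with 4.06 and 3.06 at 0.298 kb from an end. Among the secretory genes, HSP90B1, an endoplasmic reticulum chaperone, had the strongest, with 6.89 and 8.49 at 0.788 kb before its start. SUB1, a transcriptional coactivator, had 3.43 and 4.30, and DNAJB9, a co-chaperone of the unfolded protein response, had 3.35 and 3.14 at 0.470 kb before its start, inside THAP5.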

How the data were processed

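BCL6 CUT&RUN of 2 biological replicates of SUDHL5 was used, grouped by sample title. The submitters' processing notes name build hg38 and the tools Bowtie2, Picard, SAMtools, cutadapt, FastQC, deepTools, bedtools and MACS2. The sources used here give neither versions and settings nor the control of the peak calling. The deposited lists, 1 per replicate, follow the narrowPeak layout: a fold enrichment (a ratio of summit over local background), −log10 p, −log10 q and a summit for each peak. The deposited score column was not used. These values are the authors' own for each peak. Single peaks were ranked only within a list, and shared regions by the smaller of both fold enrichments.

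Summit pileup and local background were solved from the authors' fold and −log10 p. The fold was assumed to be (pileup + 1) / (background + 1) and the p a Poisson tail. All 27 peaks at the genes were solved within 0.001. The solver was tested on data simulated under the same assumptions, so that test cannot check them. The Poisson and Wilson intervals (95%) hold for counting error alone. For the Poisson intervals, fragments copied in 14 cycles of PCR are not independent. The Wilson intervals are for shares of peaks and take the peaks of a list as independent, which was not tested. Genes, starts and promoters came from RefSeq tables of GRCh38.p14, the assembly of hg38. All 10 symbols and all 65 of the further lists matched, and starts were listed for 8 of the 10. Exons were not separated, and the shares of all protein-coding genes were not matched for gene length. A region belongs to a gene if any summit of its peaks lies in the window, and neighbouring genes can share one.

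All 10 genes are reported whatever their values, as is any protein-coding gene nearer to a summit. Of each further list, up to 4 genes with a shared region within 10 kb are named. Genes and lists were chosen with earlier results of these data known. No test was made: there is 1 condition, and the 10 genes were set beside all protein-coding genes by counts. Alternatives changed the overlap, −log10 q, window or list. Python 3.11.15 with pandas 2.3.3, numpy 2.4.6 and scipy 1.17.1 was used.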

Additional observations from a re-analysis of the deposited data

How the results depend on the processing

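The 4 genes with a shared region were the same with windows of 10 kb and 100 kb, while the share of all protein-coding genes, 10.2%, became 5.79% and 15.1%. With a reciprocal overlap of at least 50%, 2 genes (CD38 and PRDM1) kept 2 regions, against 7.02% of all genes. With summits within 200 bp, CD27 and the downstream region of CD38 were lost and 3 regions were left, against 7.72%. A −log10 q of at least 5 lost the same regions and left 3, against 4.49%, and at least 10 left XBP1 alone with 1 region, against 2.39%. Within 1 kb on either side of an end, without the rest of the gene body, CD38 alone was left with 2 regions, against 2.74%. With no overlap asked, JCHAIN joined the 4 genes, and 15.6% of all genes had a peak of each list. Leaving out 1 replicate also drops the need for overlap: 6 genes had a peak without replicate 1 and 7 without replicate 2, with 9 to 18 peaks in place of 5 regions, against 23.3% to 29.5% of all genes. Without CD27, chosen after seeing the data, the median fold at the genes was 4.20 and 4.71 in place of 3.17 and 3.63. No paired analysis was possible because the numbers are shared only with the IgG libraries, which were not analysed here, and no result comes from a test. Pileups of 11 to 55 fragments at these genes limit the precision, and a peak missing from a list is no measure of absence.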
